A study of Mus musculus with 10 samples.

Results

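The transcription factors described here are 10 genes that drive or accompany the pachytene programme of male germ cells: Mybl1, Mybl2, Tcfl5, Rfx1, Rfx2, Rfx3, Rfx4, Sox30, Crem and Taf7l. They were chosen by symbol, and all 10 were found among the 23420 gene rows of the count files and passed the filter on low counts that left 15265 genes for testing. Gene counts came from polyA RNA of cells that had been dissociated from mouse seminiferous tubules on postnatal day 18, in 5 Ino80cKO libraries and 5 Ino80WT libraries. Ino80cKO carries a testis-specific deletion of the chromatin remodeller gene Ino80 made with Stra8-Cre, a recombinase driven by a promoter active in male germ cells, and Ino80WT is labelled wild type. Both groups are of mixed strain background. The labels do not say whether Ino80WT mice carry the Cre or a floxed allele, nor that each library came from its own animal. The p-values below therefore cover only library-to-library spread, part of which may be technical.

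In pachytene of meiotic prophase, spermatocytes switch on a large set of genes, many of them needed only after the meiotic divisions. MYBL1 (A-MYB) and the basic helix-loop-helix factor TCFL5 act in these spermatocytes, and MYBL1 also drives the precursors of pachytene piRNAs. RFX2, SOX30 and CREM are made in spermatocytes. Like TAF7L, they are best known in mouse for genes needed in spermatids. Spermatids are the haploid cells that build the acrosome, the flagellum and the compact sperm nucleus. RFX1 and RFX3 are broadly expressed relatives of RFX2, RFX4 is an RFX factor of brain and testis, and MYBL2 (B-MYB) activates cell division genes with the MuvB protein core.

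Gene counts per library ranged from 16750609 to 23700094, which puts 3 counts between 0.127 and 0.179 CPM (gene counts scaled to 1e+06 per library), a floor for counting error only. The least abundant member in any library, Rfx3, still had 216 counts there. The gene-level count of Ino80 itself, 96.0 ± 1.37 CPM in Ino80cKO and 94.9 ± 12.6 CPM in Ino80WT (SD, n = 5 each), says nothing for or against the labels: the labels do not say which exons were deleted, and reads of the other exons still count. Germ cell transcripts were abundant in every library: the RNA-binding protein gene Dazl had 719 to 855 CPM in Ino80cKO and 727 to 915 CPM in Ino80WT. The germ cell genes Ddx4 and Sycp3 were lower in Ino80cKO. Ddx4 had 436 ± 46.3 CPM in Ino80cKO and 824 ± 105 CPM in Ino80WT (SD, n = 5 each). Sycp3 had 381 ± 45.3 CPM in Ino80cKO and 515 ± 81.5 CPM in Ino80WT. Sertoli cell RNA was present too, as the 12 Sertoli markers summed to 4950 to 6580 CPM in Ino80cKO and 3460 to 5310 CPM in Ino80WT. Below, CPM are scaled with TMM factors, log2 fold changes are Ino80cKO over Ino80WT with SE, and every adjusted p is a Benjamini-Hochberg value over all 15265 genes from the quasi-likelihood test of edgeR.

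Of the 10 factors, 6 were lower in Ino80cKO (Mybl1, Tcfl5, Rfx2, Sox30, Crem and Rfx4) and 4 were higher (Taf7l, Rfx1, Rfx3 and Mybl2). Among all tested genes 45.9% changed, 27.6% lower and 18.3% higher. The median log2 fold change was -0.59 over the 10 factors and 0.02 over all tested genes. The CPM of the groups did not overlap for 8 of the 10 factors, against 32.0% of all tested genes. The falls were the larger changes, up to 2.58-fold, while the largest rise was 1.40-fold. No factor turned direction under any of the 17 alternative settings, among them other scalings, DESeq2 and the omission of single libraries.

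**Figure D1:**
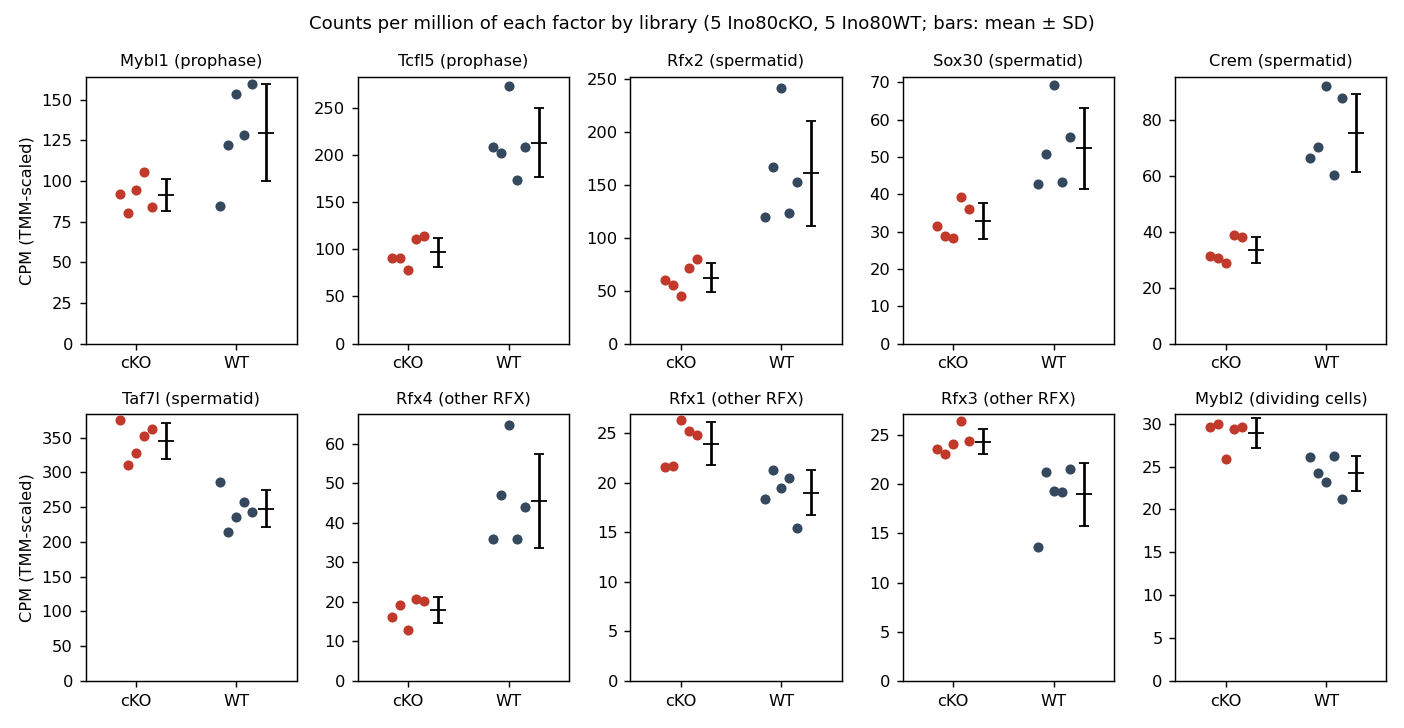
Each panel plots the CPM of one factor in 5 Ino80cKO libraries (left) and 5 Ino80WT libraries (right), with mean and SD beside the points. Tcfl5, Rfx2, Crem and Rfx4 form separate low and high clouds, and the clouds of Mybl1 and Mybl2 overlap.

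Tcfl5 is one of the prophase regulators and a gene that MYBL1 is reported to activate in mouse. It lies on chromosome 2 (mm10, chr2:180621956-180642708, minus strand). Its level was 91.3, 90.7, 77.6, 110.9 and 114.3 CPM in Ino80cKO libraries 1 to 5, and 208.6, 202.8, 273.1, 173.4 and 208.5 CPM in Ino80WT libraries 1 to 5. Every Ino80cKO library was below every Ino80WT library. Tcfl5 fell 2.20-fold, a log2 fold change of -1.14 ± 0.13 (adjusted p = 7.23e-05). A stretch of 234 bases, 7.39% of its exons, overlaps the gene Col9a3 on the other strand, and Col9a3 itself had only 5.99 CPM in Ino80cKO and 5.55 CPM in Ino80WT.

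Mybl1, the other prophase regulator, changed less. It had 91.8, 80.1, 94.2, 105.4 and 84.2 CPM in Ino80cKO libraries 1 to 5, and 84.5, 122.3, 153.6, 128.5 and 159.8 CPM in Ino80WT libraries 1 to 5. The first Ino80WT library sat within the Ino80cKO range and the other four lay above it. Mybl1 (chr1:9667415-9700209, minus strand) fell 1.42-fold, with a log2 fold change of -0.51 ± 0.15 (adjusted p = 0.0144). Scaled by library totals in place of TMM factors the value was -0.33 with adjusted p = 0.0622, and without Ino80WT 3 and Ino80cKO 3 together it was -0.43 with adjusted p = 0.0619.

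Rfx2 had the largest fall of the 10. RFX2 binds the X-box motif with its relatives and is required in mouse for spermatid flagellum genes. It had 60.1, 55.1, 45.0, 71.5 and 79.9 CPM in Ino80cKO libraries 1 to 5, and 119.1, 167.1, 241.7, 123.0 and 152.6 CPM in Ino80WT libraries 1 to 5. The highest Ino80cKO library lay well below the lowest Ino80WT library, although Ino80WT libraries varied among themselves by up to 2.03-fold. Rfx2 (chr17:56775897-56831013, minus strand) fell 2.58-fold, a log2 fold change of -1.37 ± 0.20 (adjusted p = 0.000288).

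Crem, a gene of the CREB family, encodes an activator of spermatid genes and, from other promoters and exons, repressors. Gene-level counts cannot tell these forms apart. Crem had 31.3, 30.8, 28.8, 38.8 and 38.3 CPM in Ino80cKO libraries 1 to 5, and 66.4, 70.2, 92.2, 60.2 and 88.1 CPM in Ino80WT libraries 1 to 5. Crem (chr18:3266048-3337748, minus strand) fell 2.24-fold with no overlap of the groups, at a log2 fold change of -1.17 ± 0.13 (adjusted p = 6.56e-05). A predicted gene on the other strand, Gm6225, covers 8.01% of the Crem exons and had at most 12 counts in any library.

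Sox30 encodes an HMG-box factor that mouse spermatids need for haploid gene expression. Its level was 31.6, 28.8, 28.2, 39.3 and 36.2 CPM in Ino80cKO libraries 1 to 5, and 42.7, 50.9, 69.3, 43.2 and 55.3 CPM in Ino80WT libraries 1 to 5. The groups came close, the highest Ino80cKO library lying just below the lowest Ino80WT library. Sox30 (chr11:45980310-46017994, plus strand) fell 1.59-fold, with a log2 fold change of -0.67 ± 0.14 (adjusted p = 0.00225).

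Taf7l, the X-linked paralogue of the TFIID subunit gene Taf7, went the other way from the other spermatid regulators. TAF7L works in mouse testis with TBPL1, a relative of the TATA-binding protein. Taf7l had 375.4, 311.3, 327.7, 352.1 and 362.4 CPM in Ino80cKO libraries 1 to 5, and 286.5, 214.6, 236.1, 256.8 and 243.4 CPM in Ino80WT libraries 1 to 5. All Ino80cKO libraries lay above all Ino80WT libraries. Taf7l (chrX:134460118-134476490, minus strand) rose 1.40-fold, a log2 fold change of 0.48 ± 0.09 (adjusted p = 0.000865). Taf7l is 1 of 599 tested X-linked genes, of which 296 were higher and 1 was lower (median log2 fold change 0.34).

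Its autosomal paralogue Taf7 had a log2 fold change of -0.07 ± 0.07 (adjusted p = 0.431). The partner gene Tbpl1 fell 1.82-fold, to 88.1 ± 10.6 CPM in Ino80cKO against 160.1 ± 34.0 CPM in Ino80WT (SD, n = 5 each; adjusted p = 0.000356). Taf1, the X-linked gene of the largest TFIID subunit, rose 1.26-fold (adjusted p = 0.00156).

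The RFX genes split. Rfx4 fell like Rfx2, with 16.2, 19.3, 12.9, 20.7 and 20.2 CPM in Ino80cKO libraries 1 to 5, and 36.0, 47.1, 64.9, 36.0 and 44.0 CPM in Ino80WT libraries 1 to 5. The groups did not overlap, and the log2 fold change of Rfx4 (chr10:84756062-84906538, plus strand) was -1.35 ± 0.18, or 2.55-fold lower (adjusted p = 0.000131). Rfx4 is also a gene of ependymal and neural cells. Of 6 markers of such cells, only Gfap, Nes and Rbfox3 passed the count filter. Gfap fell to 0.562 ± 0.106 CPM in Ino80cKO, against 1.59 ± 0.331 CPM in Ino80WT (SD, n = 5 each). Nes rose to 27.5 ± 2.28 CPM in Ino80cKO, against 21.3 ± 3.85 CPM in Ino80WT (adjusted p = 0.0241). Rbfox3 was not called, at 1.16 ± 0.429 CPM in Ino80cKO and 1.37 ± 0.710 CPM in Ino80WT (adjusted p = 0.594). The 6 summed to 27.0 to 32.9 CPM in Ino80cKO and 19.9 to 29.6 CPM in Ino80WT.

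Rfx1 and Rfx3 rose. Rfx1 had 21.6, 21.6, 26.3, 25.2 and 24.8 CPM in Ino80cKO libraries 1 to 5, and 18.4, 21.3, 19.4, 20.5 and 15.4 CPM in Ino80WT libraries 1 to 5. These ranges were adjacent without overlap, and the log2 fold change of Rfx1 (chr8:84066834-84096992, plus strand) was 0.33 ± 0.10 (1.26-fold, adjusted p = 0.0196). Rfx3 had 23.6, 23.1, 24.1, 26.5 and 24.4 CPM in Ino80cKO libraries 1 to 5, and 13.6, 21.2, 19.3, 19.2 and 21.6 CPM in Ino80WT libraries 1 to 5. The first Ino80WT library stood lowest and the groups did not overlap. The log2 fold change of Rfx3 (chr19:27761721-28011166, minus strand) was 0.36 ± 0.12 (1.28-fold, adjusted p = 0.0236), and without Ino80cKO 4 it was 0.33 with adjusted p = 0.0561.

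The make-up of Rfx1 to Rfx4 transcripts therefore differed between the groups, with Rfx5, Rfx7 and Rfx8 left out. Per kilobase of annotated exon, Rfx2 supplied 46.4% ± 4.13 of the summed level of Rfx1 to Rfx4 in Ino80cKO and 60.0% ± 2.63 in Ino80WT (SD, n = 5 each), with library ranges of 40.6% to 51.4% and 57.3% to 64.1%. The share of Rfx1 was 20.7% ± 3.57 in Ino80cKO and 8.51% ± 2.11 in Ino80WT, and that of Rfx3 was 12.3% ± 1.44 in Ino80cKO and 4.89% ± 1.02 in Ino80WT. Rfx4 supplied 20.7% ± 2.18 in Ino80cKO and 26.6% ± 0.521 in Ino80WT. None of the 4 share ranges overlapped between the groups. The 4 shares make up the whole in each library, so the falls of Rfx2 and Rfx4 alone raise the shares of Rfx1 and Rfx3. They restate the levels above and are not separate results.

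Mybl2, the MYB gene of dividing cells, rose slightly. It had 29.6, 30.0, 25.9, 29.4 and 29.7 CPM in Ino80cKO libraries 1 to 5, and 26.1, 24.2, 23.2, 26.2 and 21.3 CPM in Ino80WT libraries 1 to 5. The third Ino80cKO library lay within the Ino80WT range, and the log2 fold change of Mybl2 (chr2:163054687-163084688, plus strand) was 0.26 ± 0.08 (1.19-fold, adjusted p = 0.0231). The call was lost without Ino80WT 5 (0.21, adjusted p = 0.057), without Ino80cKO 1 (0.25, adjusted p = 0.0532) and without Ino80cKO 2 (0.24, adjusted p = 0.0562). Per kilobase, Mybl1 made up 69.6% to 75.7% of the 2 MYB genes in Ino80cKO and 73.5% to 86.6% in Ino80WT, ranges that overlap.

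The rises of Rfx1, Rfx3 and Mybl2 stood beside higher levels of some markers of somatic cells, against 18.3% of all tested genes higher. Of the 12 Sertoli markers 6 were higher and none lower (median log2 fold change 0.33), and their summed level is given above. Without Ino80WT 5, or without Ino80WT 3 and Ino80cKO 3 together, 3 of them were higher. Of 10 macrophage and leukocyte markers 7 were higher, and they summed to 58.8 to 89.6 CPM in Ino80cKO and 23.3 to 38.1 CPM in Ino80WT. Of 9 tested Leydig and peritubular markers 6 were higher, with sums over all 10 listed of 819 to 1210 CPM in Ino80cKO and 666 to 899 CPM in Ino80WT. Without Ino80WT 3, and likewise without Ino80cKO 1, 3 of the 9 were higher. Spermatogonium markers did not stand out: 3 of 13 were higher, a share near that of all genes, and 2 lower (median 0.08), 1 was higher without Ino80WT 5, and the sums of 790 to 901 CPM in Ino80cKO and 660 to 839 CPM in Ino80WT overlap. The part of somatic cells in the rise of these 3 factors was not tested.

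**Figure D2:**
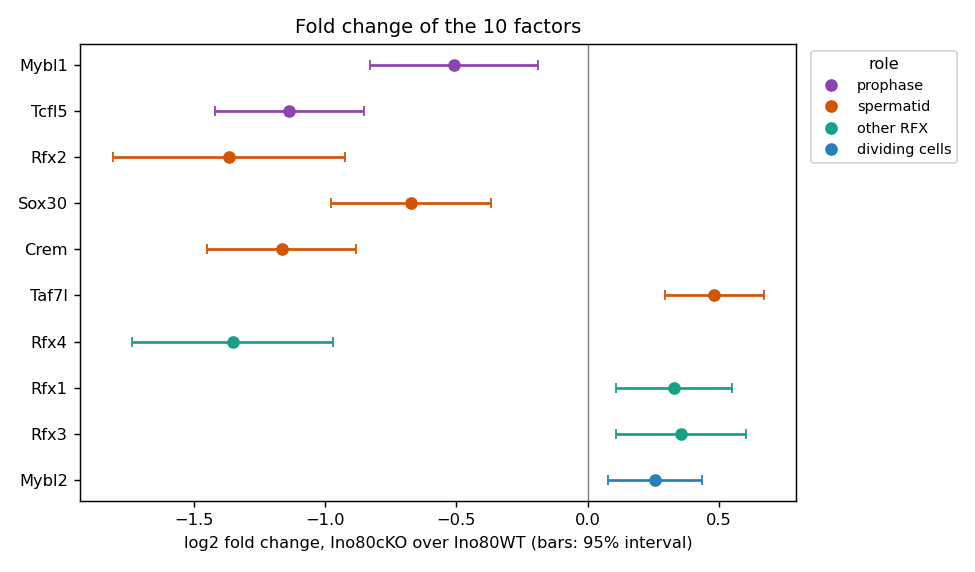
Points are log2 fold changes (Ino80cKO over Ino80WT) of the 10 factors with 95% intervals, coloured by the stage at which each acts. Prophase and spermatid factors are mixed along the axis: Mybl1 at -0.51 and Sox30 at -0.67 lie nearest zero among those that fell, Tcfl5, Crem and Rfx2 lie between -1.14 and -1.37, and Taf7l is at 0.48.

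Set against each other, prophase and spermatid regulators overlapped in their changes. The prophase factors Tcfl5 and Mybl1 had log2 fold changes of -1.14 and -0.51, and the spermatid factors Rfx2, Crem, Sox30 and Taf7l had -1.37, -1.17, -0.67 and 0.48. The mean log2 CPM of the prophase factors exceeded that of the spermatid factors by 0.30 to 0.54 in Ino80cKO libraries and by 0.42 to 0.65 in Ino80WT libraries. Those ranges overlap, and the group means differed by -0.14, with 0.43 ± 0.09 in Ino80cKO and 0.57 ± 0.09 in Ino80WT (SD, n = 5 each). No p-value is given for this score, since the factors were chosen with results known. The direction of this difference rests on Taf7l. Without it the excess of the prophase factors was 1.20 ± 0.12 in Ino80cKO and 0.96 ± 0.11 in Ino80WT, a difference of 0.245 with ranges that overlap, 1.03 to 1.36 in Ino80cKO and 0.82 to 1.13 in Ino80WT.

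Levels can be compared between genes only per kilobase of exon. In Ino80cKO the order was Taf7l (154 ± 11.6 CPM per kilobase), Tcfl5 (30.6 ± 4.85), Mybl1 (16.9 ± 1.82), Sox30 (10.95 ± 1.59), Rfx2 (8.52 ± 1.87), Mybl2 (6.24 ± 0.370), Crem (5.70 ± 0.785), Rfx4 (3.78 ± 0.694), Rfx1 (3.72 ± 0.337) and Rfx3 (2.21 ± 0.116). In Ino80WT the order was Taf7l (110.2 ± 11.9 CPM per kilobase), Tcfl5 (67.4 ± 11.5), Mybl1 (24.0 ± 5.54), Rfx2 (22.0 ± 6.78), Sox30 (17.4 ± 3.64), Crem (12.8 ± 2.37), Rfx4 (9.65 ± 2.51), Mybl2 (5.23 ± 0.451), Rfx1 (2.95 ± 0.354) and Rfx3 (1.72 ± 0.290). Errors are SD over 5 libraries. Taf7l and Tcfl5 led in both groups, while Rfx2, Crem and Rfx4 stood above Mybl2 by more than their SD in Ino80WT. In Ino80cKO, Rfx4 stood below Mybl2 by more than its SD, and Crem and Mybl2 differed by less. The neighbouring pairs Mybl1 and Rfx2 in Ino80WT, and Rfx4 and Rfx1 in Ino80cKO, differed by less than their SD. Exon lengths are those of GENCODE M21, which need not be the transcripts made in these cells.

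**Figure D3:**
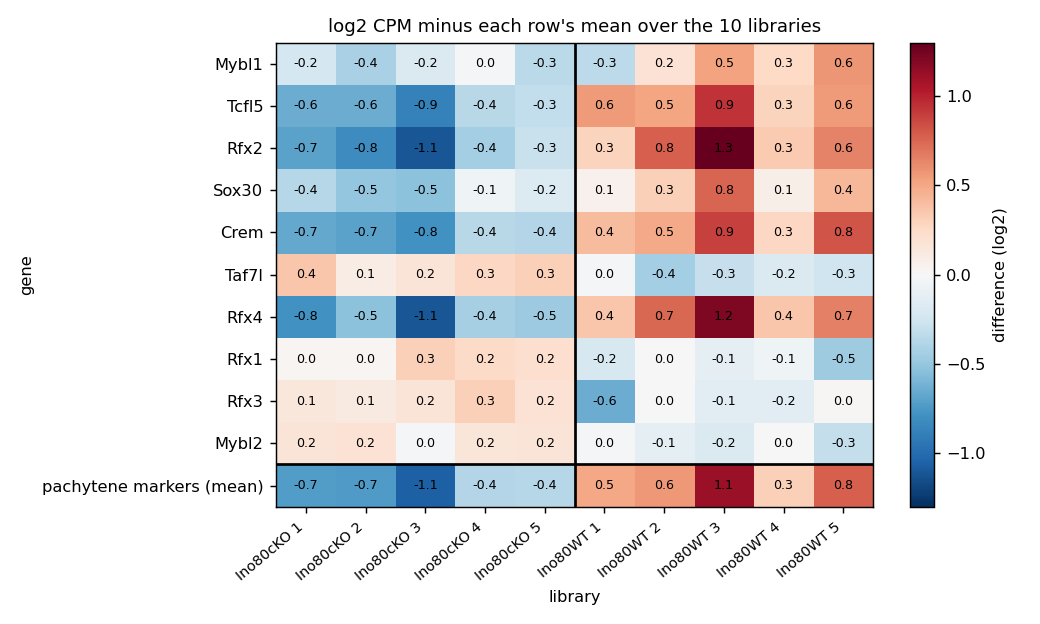
Each cell gives the log2 CPM of a factor in one library minus the factor's mean over the 10 libraries, with the mean of 17 pachytene markers in the bottom row. Tcfl5, Rfx2, Sox30, Crem and Rfx4 are highest in Ino80WT 3 and lowest in Ino80cKO 3, like the markers. Rfx1, Rfx3, Mybl2 and Taf7l are higher on average in Ino80cKO, with their extremes in varied libraries.

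The libraries varied along with their spermatocyte RNA. Of the 12 leptotene and zygotene markers 8 were lower and none higher, against 27.6% lower and 18.3% higher over all tested genes. Their median log2 fold change was -0.44, while scaling by library totals gave 5 lower, 1 higher and a median of -0.27. The 6 tested round spermatid markers split: Actl7b, Dkkl1 and Spata16 fell, with log2 fold changes of -1.79, -1.65 and -1.59, and Izumo1, Spaca1 and Txndc2 were not called, at -0.28, 0.00084 and 0.48. All 17 pachytene spermatocyte markers fell, with log2 fold changes of -1.77 to -0.62 and a median of -1.28. Their mean level was 5.98 to 6.67 log2 CPM in Ino80cKO and 7.34 to 8.16 log2 CPM in Ino80WT, lowest in Ino80cKO 3 and highest in Ino80WT 3. Tcfl5, Rfx2, Rfx4, Sox30 and Crem were each lowest and highest in these same libraries. In bulk libraries fewer spermatocytes and less RNA per spermatocyte cannot be told apart.

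Each factor was then set against the mean of these markers. Rfx2 had a log2 level relative to the marker mean of -0.44 ± 0.07 in Ino80cKO and -0.41 ± 0.19 in Ino80WT, Rfx4 had -2.23 ± 0.12 in Ino80cKO and -2.21 ± 0.14 in Ino80WT, and for both the groups overlapped (SD, n = 5 each). Crem, at -1.31 ± 0.11 in Ino80cKO and -1.47 ± 0.10 in Ino80WT, and Tcfl5, at 0.21 ± 0.06 in Ino80cKO and 0.03 ± 0.12 in Ino80WT, also overlapped. These 4 transcripts thus moved with the marker mean to within 0.18 on the log2 scale.

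Sox30 and Mybl1 stood higher relative to the marker mean in Ino80cKO, although the log2 fold change of Sox30, -0.67, lies within the range of the single markers. The relative log2 level of Sox30 was -1.35 ± 0.13 in Ino80cKO and -2.002 ± 0.09 in Ino80WT, a difference of 0.65. That of Mybl1 was 0.13 ± 0.31 in Ino80cKO and -0.70 ± 0.32 in Ino80WT, a difference of 0.83. Neither overlapped between the groups, and leaving out single libraries gave 0.602 to 0.686 for Sox30 and 0.715 to 0.928 for Mybl1. The marker mean itself differed by -1.31 between the groups, so a gene with unchanged CPM would also stand higher in Ino80cKO on this scale. The lack of overlap is therefore no trait of these factors alone. Taf7l, Rfx3, Rfx1 and Mybl2, which rose in CPM, stood higher relative to the marker mean by 1.80, 1.68, 1.64 and 1.57. These values are descriptions without a test.

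**Figure D4:**
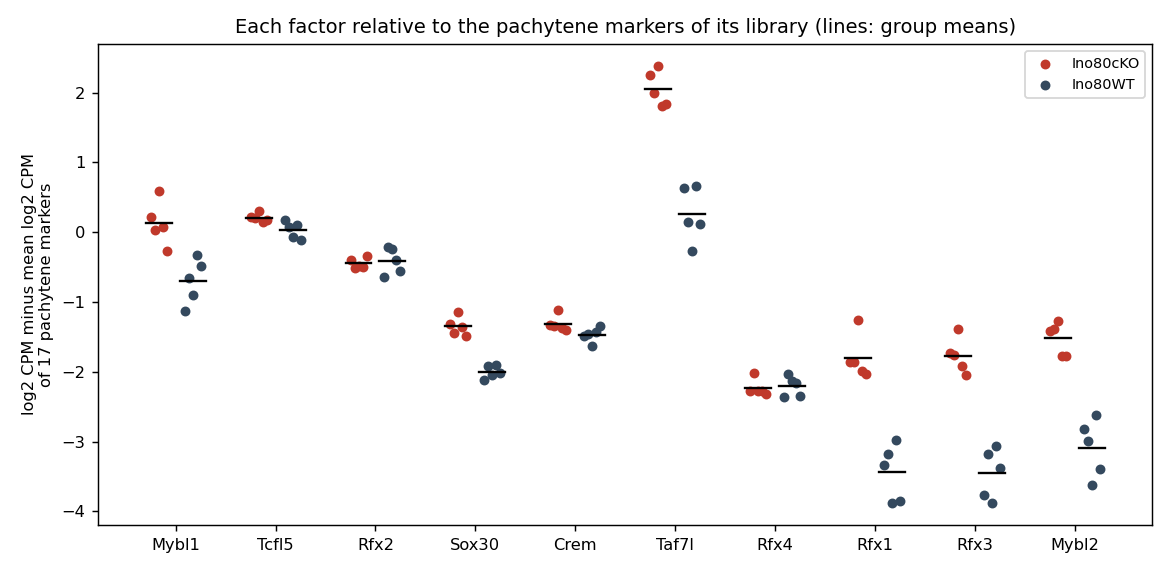
The vertical axis is the log2 CPM of each factor minus the mean log2 CPM of 17 pachytene markers in the same library, for Ino80cKO (left of each pair) and Ino80WT (right). Tcfl5, Rfx2, Crem and Rfx4 overlap between the groups, while Mybl1, Sox30, Taf7l, Rfx1, Rfx3 and Mybl2 lie higher in Ino80cKO.

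Genes with the most similar course over the 10 libraries were sought among 12344 genes by the root mean square (RMS) difference of centred log2 CPM. For Tcfl5 they were Mael, Enkd1 and Acot7, with RMS differences of 0.0523, 0.0617 and 0.0631 against an RMS of 0.605 for Tcfl5 around its own mean. For Crem they were Cep72, Fbxo43 and Plk1s1 (0.0627, 0.0696 and 0.07, against 0.614). For Mybl1 they were Sox6, Trim23 and Hectd2 (0.102, 0.113 and 0.114, against 0.347). For Taf7l they were Ercc6l, Ribc1 and Dse (0.0622, 0.0826 and 0.0922, against 0.271), of which Ercc6l and Ribc1 are also X-linked.

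Promoters of 3 factors that fell are shown. They were picked because each holds several matches to the MYB motif, so their number is no result. The promoter of Sox30, which also fell, and that of the upstream Rfx4 start held 0 MYB matches. Sequences are from RefSeq (GRCm38.p6), 250 bases before to 50 after the start, 5′ to 3′ on the gene's strand, with matches to any motif searched in capitals.
Tcfl5: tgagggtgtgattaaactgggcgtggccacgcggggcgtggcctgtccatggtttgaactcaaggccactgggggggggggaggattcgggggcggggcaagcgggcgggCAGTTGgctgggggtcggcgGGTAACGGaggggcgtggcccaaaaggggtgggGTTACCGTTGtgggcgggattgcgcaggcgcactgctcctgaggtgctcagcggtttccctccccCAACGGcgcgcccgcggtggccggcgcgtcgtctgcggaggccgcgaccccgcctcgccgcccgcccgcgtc
Rfx2: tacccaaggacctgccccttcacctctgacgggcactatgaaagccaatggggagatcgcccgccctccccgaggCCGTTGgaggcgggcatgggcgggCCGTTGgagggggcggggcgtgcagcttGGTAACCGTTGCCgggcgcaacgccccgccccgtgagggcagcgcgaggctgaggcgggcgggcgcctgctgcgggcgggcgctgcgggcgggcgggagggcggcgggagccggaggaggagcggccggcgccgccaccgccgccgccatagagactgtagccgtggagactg
Rfx4: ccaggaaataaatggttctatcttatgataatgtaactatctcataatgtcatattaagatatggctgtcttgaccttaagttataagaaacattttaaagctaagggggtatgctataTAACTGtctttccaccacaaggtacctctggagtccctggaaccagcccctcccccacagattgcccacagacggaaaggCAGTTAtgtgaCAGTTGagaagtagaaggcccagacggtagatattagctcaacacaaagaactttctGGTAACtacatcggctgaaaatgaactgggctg
They lie at chr2:180642642-180642941 (minus strand), chr17:56830959-56831258 (minus strand) and chr10:84837898-84838197 (plus strand, the downstream one of 2 Rfx4 starts). Motifs were searched on both strands as CAACGG for MYB (or with CAACTG, or with TAACGG, or with TAACTG in its place), GTTGCC (or with GTTACC in its place) for an RFX half-site, CACGTG for the E-box, TGACGT for a CRE half-site, and ACAAT for SOX.

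The Tcfl5 promoter held 4 MYB matches, the Rfx2 promoter 3 and this Rfx4 promoter 3. Matches began 140, 118, 83 and 22 bases upstream of the start in Tcfl5, 175, 151 and 118 bases upstream in Rfx2, and 131, 51 and 40 bases upstream in Rfx4. A MYB match was found in 28.3% of all 32851 promoters of this length. The Tcfl5 and Rfx2 promoters also had 2 RFX half-sites each, against 18.6% of promoters with at least 1, and in Tcfl5 2 MYB matches and in Rfx2 1 MYB match overlap such half-sites, so those letters count for both. A match is a stretch of letters, not evidence of binding.

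The promoter of Taf7l, the factor with the largest rise, is shown for contrast.
Taf7l: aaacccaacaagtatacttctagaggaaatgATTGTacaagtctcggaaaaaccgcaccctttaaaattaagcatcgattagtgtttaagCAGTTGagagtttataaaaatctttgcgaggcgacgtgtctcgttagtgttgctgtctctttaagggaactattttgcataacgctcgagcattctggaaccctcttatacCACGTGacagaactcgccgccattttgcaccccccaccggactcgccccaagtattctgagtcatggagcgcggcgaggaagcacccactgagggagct
At chrX:134476441-134476740 (minus strand), it held 1 E-box 49 bases upstream of the start, a motif found in 7.15% of promoters, with 1 MYB match and 1 SOX match. The Rfx4 promoter above also held 1 RFX half-site. Among the other promoters, those of Rfx1 and Rfx3 held 1 MYB match and 1 RFX half-site each, which overlap, and that of Rfx1 a CRE half-site as well. Sox30 and the upstream Rfx4 start held 1 SOX match each, and the Mybl2 window held none of the letters searched. A SOX match was found in 31% of promoters and a CRE half-site in 7.51%. Promoters of 8 members were matched in the table. Those of Mybl1 and Crem were not used here.

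Genes downstream of the factors were followed with lists of reported targets. Of 15 reported MYBL1 targets, the factor gene Tcfl5 among them, 12 were lower and none higher (median log2 fold change -1.10). Over all tested genes 27.6% were lower, with a median of 0.02. All 17 pachytene markers were lower, with a median of -1.28, so such a fall is no trait of this list alone. The RNA helicase gene Ddx4, Tdrd9 and Mael of the piRNA pathway and Tcfl5 had the smallest adjusted p. Mael fell 2.14-fold, to 337 ± 54.8 CPM in Ino80cKO against 722 ± 124 CPM in Ino80WT (SD, n = 5 each). The piRNA-binding protein gene Piwil1, named after its value was seen, fell 2.82-fold (adjusted p = 9.01e-05). Ing2, Lin54 and Celf4, the 3 without a call, had log2 fold changes of -0.09, 0.05 and 0.04, and were named after their values were seen.

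The list of 23 RFX targets and other genes of cilia and flagella had 19 lower and 1 higher. Over all tested genes 27.6% were lower and 18.3% higher. The median log2 fold change of the list was -1.18, and that of the pachytene markers was -1.28. Rsph1, of the axonemal radial spoke, fell 3.09-fold to 320 ± 55.6 CPM in Ino80cKO, against 989 ± 149 CPM in Ino80WT (adjusted p = 2.99e-05). The intraflagellar transport gene Ift88 fell 1.73-fold (adjusted p = 4.5e-05), Dync2li1, of the dynein that moves such trains, 1.70-fold, and Spag8 2.61-fold. The laminin gene Lamc3 rose 1.31-fold (adjusted p = 0.0104). Of 15 genes of this list with a promoter entry 10 held an RFX half-site (66.7%), against 20.8% of all 27025 genes of the promoter table. Of 12 MYBL1 targets with a promoter entry 5 held a MYB match (41.7%), against 31.1% of all genes, and 6 held an E-box (50%), against 8.09%. Motif and list did not always pair: 7 of the 15 RFX and cilium genes held a MYB match (46.7%), and 0 of 7 CREM targets with a promoter entry held a CRE half-site, against 8.37% of all genes.

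Most listed targets of CREM, and of SOX30 or TAF7L, had few or no counts in either group at this age, postnatal day 18. Those below the count filter could not be tested for a change. Of 9 reported CREM targets 3 passed the count filter and none was called by edgeR, while DESeq2 called 1 higher. Only Ace was under an unadjusted p of 0.05 in edgeR. Ace, the angiotensin-converting enzyme gene, had 56.4 ± 9.55 CPM in Ino80cKO and 46.3 ± 3.99 CPM in Ino80WT (adjusted p = 0.054), Camk4 had adjusted p = 0.159 and Creb3l4 adjusted p = 0.287. The protamine genes Prm1 and Prm2 and the transition protein gene Tnp2 had 0 counts in all 10 libraries. A count of 0 allows up to 0.179 CPM in the shallowest of them, scaled by its gene count total without TMM factors. Tnp1 had 7 counts over the 5 Ino80cKO libraries and 10 over the 5 Ino80WT libraries, and Odf1, of the outer dense fibres, had 12 in Ino80cKO and 19 in Ino80WT. Of 7 reported SOX30 or TAF7L targets only Tsks passed, at 1.79 ± 0.404 CPM in Ino80cKO and 2.26 ± 0.146 CPM in Ino80WT (adjusted p = 0.129). Ccdc54, named after its counts were seen, had 22 counts in Ino80cKO and 1 in Ino80WT and was below the filter.

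Listed targets of MYBL2 were set beside the small rise of Mybl2, a call lost under 4 of the 17 alternative settings. Of 15 G2/M genes driven by MYBL2 and MuvB in dividing cells, 9 were lower and none higher (median log2 fold change -0.24). Among all tested genes 27.6% were lower and 18.3% higher. Scaled by library totals, 5 fell, 1 rose and the median was -0.06, and without Ino80cKO 3 the number lower was 5. Aurka, the spindle kinase gene, fell 1.82-fold, Ccnb2 1.79-fold, and Cdc20 and Birc5 1.58-fold each. Several of these genes are also transcribed in spermatocytes, and the part of spermatocytes or of MYBL2 in their levels was not tested. In the list of 10 MuvB core and MYB partner genes 5 were lower and 1 higher (median -0.22). The MuvB genes Lin9 and Lin52 fell 1.53-fold and 1.39-fold, Rbl1 1.37-fold and Tfdp1 1.20-fold, while Rbl2, a pocket protein gene, rose 1.34-fold (adjusted p = 0.0124). Scaled by library totals, 3 of the 10 fell and 2 rose.

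**Figure D5:**
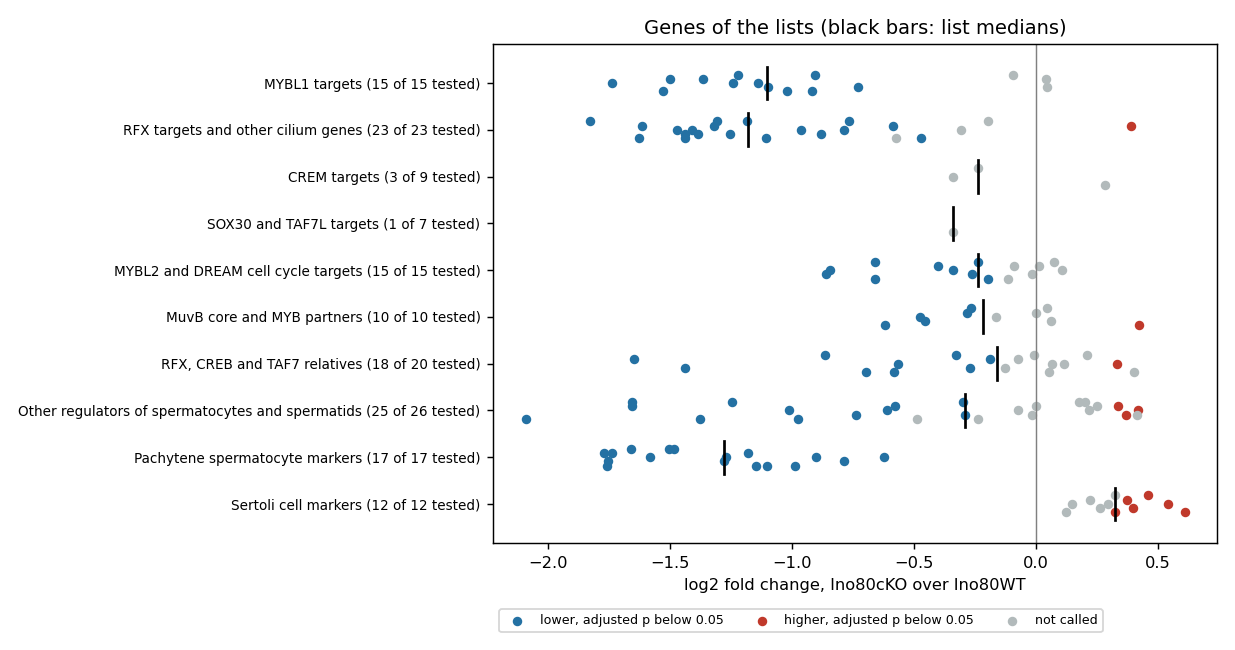
Points are log2 fold changes (Ino80cKO over Ino80WT) of the tested genes of each list, blue where lower, red where higher and grey where not called, with the list median as a black bar. MYBL1 targets and cilium genes centre on -1.10 and -1.18 near the pachytene markers at -1.28. Relatives of the factors centre on -0.16, MuvB and MYB partners on -0.22 and the other regulators on -0.29.

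Relatives of the RFX factors, CREM and TAF7L moved less as a group. Among 18 tested genes, 9 fell and 1 rose (median -0.16), against 27.6% lower and 18.3% higher over all tested genes. When scaled by library totals 6 fell and 5 rose (median 0.02). Rfx5, a regulator of MHC class II genes, fell 1.62-fold to 35.6 ± 1.25 CPM in Ino80cKO, against 57.6 ± 6.83 CPM in Ino80WT (adjusted p = 8.53e-05). Gtf2a1l, the germ cell TFIIA gene, fell 2.71-fold and the TATA-binding protein gene Tbp 1.48-fold. Rfx8, named after its value was seen, fell 3.13-fold (adjusted p = 0.000732). Creb1 had a log2 fold change of 0.05 ± 0.08 and Rfx7 of -0.01 ± 0.10, neither called and both named after their values were seen.

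Other regulators of spermatocytes and spermatids were split as well. Of 25 tested, 12 fell and 3 rose (median -0.29), against 27.6% lower and 18.3% higher over all tested genes. Scaling by library totals gave 10 lower and 5 higher. Kctd19, whose protein acts with ZFP541 in pachytene exit, fell 2.60-fold to 127 ± 24.9 CPM in Ino80cKO, against 329 ± 65.7 CPM in Ino80WT (adjusted p = 7.1e-05). The testis bromodomain gene Brdt fell 2.02-fold, the heat shock factor gene Hsf5 2.37-fold and Zfp37 1.67-fold. E2f1, a cell cycle regulator, rose 1.34-fold (adjusted p = 0.00432), and with it Ctcfl and the meiotic entry gene Stra8, named after their values were seen, with log2 fold changes of 0.37 and 0.34.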

How the data were processed

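The authors deposited raw read counts for each gene in a file for every library. Per the submitters' processing notes, TopHat2, HTSeq and DESeq2 were used with the build mm10, with neither versions nor roles. The kit was stranded, per the labels' protocols, but how strand was set in counting, and on which annotation, was not given in the sources used here, so reads of overlapping antisense genes may count for either gene. The 5 rows that name no gene held 35.5% to 44.0% of reads and were left out. The test was run in edgeR 4.0.16 under R 4.3.3 (filterByExpr with minimum count 10 and minimum total 15, TMM factors, genotype as the only term, robust quasi-likelihood, adjusted p below 0.05), after a test on simulated data. SE is the log2 fold change divided by the root of F, and log2 CPM used a prior count of 2. DESeq2 1.42.0, other scalings and omitted libraries were alternatives, among them Ino80WT 1 and 2 together, which held the most reads of the ribosomal RNA gene Rn45s (7.08% and 4.67% of gene counts). Exon lengths came from GENCODE M21 and promoters from RefSeq, both GRCm38, the build of mm10.

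The members and the gene lists were chosen with earlier results of these data known. Reported targets were listed from general knowledge of the field. Named genes are the 10 members, up to 4 genes per list by smallest adjusted p, plus 1 called against the list's main direction, and the 3 genes of average log2 CPM of at least 1 most like Mybl1, Tcfl5, Crem and Taf7l.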

Additional observations from a re-analysis of the deposited data

Results flagged for a closer look

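In groups of 5 libraries, 4 of 42 groups of values held a library whose gap to its nearest neighbour was a large part of the group's range. Chance alone gives about 1 in 20 such groups, and values of 1 library in several genes share that library. Mybl2 was low in Ino80cKO 3, at 25.9 CPM, with the other Ino80cKO libraries at 29.4 to 30.0 CPM. Relative to the mean of the pachytene markers, Ino80cKO 3 was high for Rfx1, at -1.25 on the log2 scale, and for Crem, at -1.12. Ino80cKO 3 also had the lowest marker mean, 5.98 log2 CPM. Ino80cKO 2 was high for Rfx4 relative to the markers, at -2.02.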

How the results depend on the processing

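Over 17 alternatives each, the calls of Tcfl5, Rfx2, Rfx4, Sox30, Crem and Taf7l stayed past the threshold. Called factors numbered 5 to 6 lower and 2 to 4 higher. Library totals and upper-quartile factors put the median of log2 fold changes over all genes at 0.19 and 0.15, and gave 5484 and 4886 higher genes against 2793; 2938 and 3183 were lower against 4220. By library totals there were 5 lower and 1 higher MYBL2 and DREAM targets, 3 lower and 2 higher MuvB and MYB partners, 1 higher MYBL1 target and 1 higher CREM target, 5 higher relatives and 5 higher other regulators. Upper-quartile factors gave 5 lower MYBL2 and DREAM targets, 3 lower MuvB and MYB partners, 1 higher CREM target, 4 higher relatives and 5 higher other regulators. DESeq2 gave 3 higher relatives and 1 higher CREM target. With no filter on low counts, 1 CREM target and 1 SOX30 or TAF7L target were higher. Without Ino80WT 3 and Ino80cKO 3 together, a choice made after seeing the data, 5 MYBL2 and DREAM targets were lower and 1 higher. Leaving out single libraries gave 0 to 1 higher CREM targets, 0 to 1 lower SOX30 or TAF7L targets, 5 to 9 lower MYBL2 and DREAM targets and 1 to 2 higher relatives. Causes of these changes were not tested. The alternatives for the score of prophase against spermatid factors and for levels relative to the markers were also added after seeing the data, and moved none by more than the SD between libraries except the score without Taf7l, at 0.245 against -0.14.

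Replicate numbers do not pair the libraries: deviations of same-numbered libraries from their group means correlated at -0.47 to 0.20. With the replicate block, 2 factors were higher, since Rfx1 (adjusted p = 0.0517) and Mybl2 (adjusted p = 0.0629) missed the threshold, 2 relatives were higher, and 3572 genes were lower and 1921 higher. Counting error is small for the 10 factors. Spermatid genes with 0 counts in both groups could not be compared, and why they were silent was not tested.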
